A study of Mus musculus with 18 samples.

Results

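The comparison asked whether cells without the dynein heavy chain DYNC2H1 answered fluid flow differently from wild-type cells. For each gene, the change under flow in Dync2h1 knockout cells was set against the change under flow in wild-type cells, as a difference of 2 differences. It used 12 of the 18 libraries of the series, the 4 groups named here with 3 libraries each. The Dync2h1 knockout line and the wild-type line (labelled Ctr) are IMCD3 cells, derived from mouse kidney collecting duct (inner medulla), with the strain background Tg(SV40E)bri/7, at passage 10 to 15. Each line was kept in microslide chambers for 3 h, either under fluid shear stress of 0.7 dyne/cm2 or static. The other 6 libraries come from an Ift140 knockout line under the same conditions and were used only for values set beside these. The labels do not give the number of clones behind a knockout line or say whether replicates were separate cultures, so p-values measure the spread between these samples, which may be technical.

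DYNC2H1 is the heavy chain of dynein-2, the motor that carries intraflagellar transport trains from the tip of the primary cilium back to its base. The primary cilium is a single sensory projection on kidney tubule cells and has been studied as a sensor of urine flow. Fluid shear stress on cultured cells is also known to act on ERK signalling, on the NRF2 stress response and on the mechanical co-activators YAP and TAZ.

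Values are TPM, the share of a gene's transcripts among all transcripts after correction for length, scaled between libraries; TPM keeps no sequencing depth. Differences are on the log2(scaled TPM + 1) scale with their SE from limma, and p-values are adjusted by the Benjamini-Hochberg method over all 16106 genes that reached 1 TPM in 3 or more of the 12 libraries. A gene passed at an adjusted p under 0.05. Values of single libraries are given for replicates 1, 2 and 3 in that order. Levels in bulk RNA cannot tell fewer cells of a kind from less RNA per cell.

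Dync2h1 (chr9:6928503-7184446, GRCm38) was read first as a check of the labels. It had 6.95, 9.92 and 10.5 TPM in Dync2h1 knockout flow libraries and 14.7, 9.35 and 15.1 in Dync2h1 knockout static libraries, against 34.5, 27.7 and 30.8 in wild-type flow libraries and 39.5, 44.2 and 33.0 in wild-type static libraries. All knockout libraries lay below all wild-type libraries, by -1.68 in flow (adjusted p = 4.5e-05) and -1.52 in static culture (adjusted p = 9.8e-05). Its difference of flow responses was -0.15 (SE 0.27, adjusted p = 0.854).

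Among the cell type markers, the epithelial keratin Krt8 averaged 1908 TPM in Dync2h1 knockout flow, 1339 in Dync2h1 knockout static, 1808 in wild-type flow and 1133 in wild-type static libraries. The 10 principal cell markers, which define the salt and water transporting cell of the collecting duct, summed to 1.90 to 3.80 TPM in knockout and 1.03 to 4.02 TPM in wild-type libraries. These genes were near absent, but they mark the principal cell only and do not decide whether the cells kept other duct features. Among other kidney epithelial genes, group means were 13.5 to 20.1 TPM for Hoxb7 and 36.5 to 66.2 TPM for Pax8. Those of Pax2, Elf5 and Gata3 were at most 4.67 TPM. Aqp2, the water channel that defines the principal cell, was at or below 0.025 TPM in every group mean. The 8 proximal tubule markers summed to 11.6 to 16.3 TPM in Dync2h1 knockout flow and 13.3 to 17.9 in Dync2h1 knockout static, against 372 to 444 in wild-type flow and 426 to 431 in wild-type static libraries, nearly all of it Cubn, which encodes the endocytic receptor cubilin. None of the intercalated cell or endothelium markers passed the filter on low values, and no marker list held a gene that passed the test of the difference. The 10 most abundant genes took 18.6% to 22.4% of the total in 11 of the 12 libraries and 16.5% in Dync2h1 knockout static replicate 3.

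The difference of flow responses passed for 154 of 16106 genes (0.956%). It was higher in Dync2h1 knockout cells for 84 (0.522%) and lower for 70 (0.435%), and 2324 genes had an unadjusted p under 0.05. Flow itself changed 4240 genes in the knockout line (26.3%; 16.3% raised and 10% lowered) and 4280 in the wild-type line (26.6%; 14% raised and 12.6% lowered). The lines differed in 37.8% of genes in flow (21.1% higher and 16.7% lower in Dync2h1 knockout) and in 34.5% in static culture (17.2% higher and 17.3% lower). The scaling factors were lowest in the 3 Dync2h1 knockout flow libraries, 0.904 to 0.949, against 0.964 to 1.09 in the other 9. Without that scaling the split was 18 higher and 73 lower, and with median-of-ratios scaling 75 higher and 77 lower; the median of all genes was 0.03 with the scaling used, -0.09 without it and 0.01 with median-of-ratios. All 154 differences kept their sign under each of these. When 1 library was left out in turn the count ran between 61 (without wild-type flow replicate 2) and 217 (without wild-type flow replicate 1), and 51 of the 154 genes passed in all 12 of those fits, 20 higher and 31 lower.

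The 154 genes were of different kinds. Of the 84 higher genes, 48 had a positive fitted change under flow in knockout and a negative one in wild-type cells, 26 a positive change in both, larger in knockout cells, and 10 a negative change in both, smaller in knockout cells. The flow change itself passed in both lines for 33 of them, in knockout cells alone for 36 and in wild-type cells alone for 15. Of the 70 lower genes, 33 had a positive change in both lines, smaller in knockout cells, 25 a negative change in knockout and a positive one in wild-type cells, and 12 a negative change in both, larger in knockout cells. It passed in both lines for 34 of them, in knockout cells alone for 12 and in wild-type cells alone for 24. Their static levels differed too. Of the 70 lower genes, 47 stood higher in Dync2h1 knockout than in wild-type static libraries and 11 stood lower, against 17.2% and 17.3% of all genes. Of the 84 higher genes, 19 stood higher and 25 lower in knockout static libraries. These static counts use libraries that also enter the difference itself, so they describe the genes and do not test them.

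**Figure D1:**
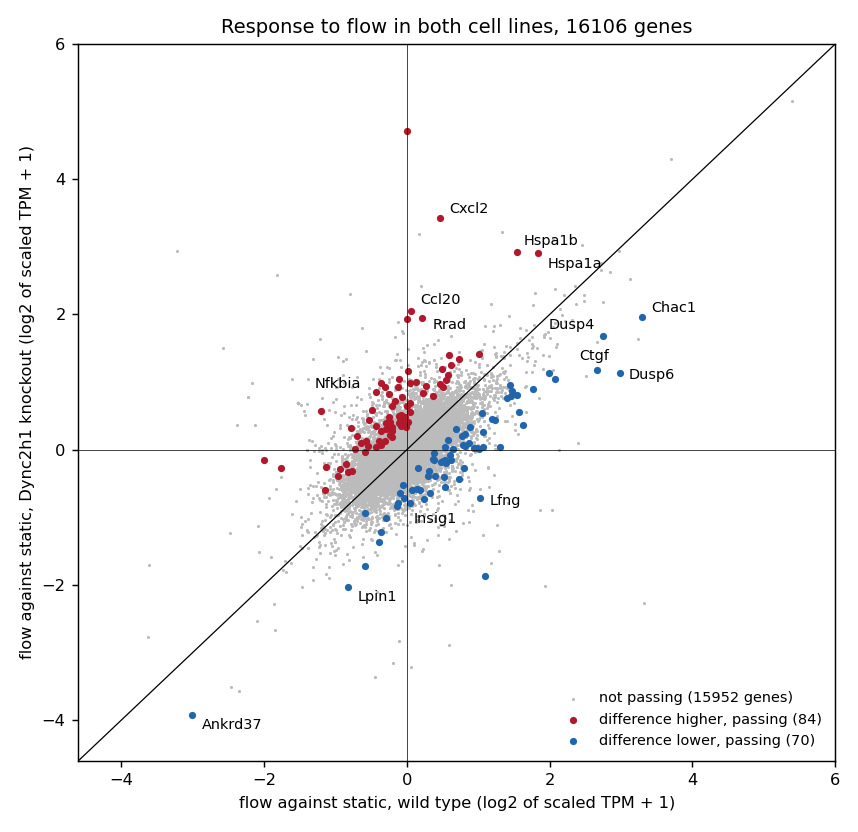
Each point is a gene, with its change under flow in wild-type cells on the horizontal axis and in Dync2h1 knockout cells on the vertical axis, both as log2 of scaled TPM + 1; the line marks equal responses. Most genes lie along the line, the 84 red genes above it and the 70 blue genes below it have a difference that passed.

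Inflammatory genes held the 2 largest positive differences among named genes. NF-kB is a transcription factor family that drives chemokine genes and also its own inhibitor. Cxcl2, a chemokine that draws neutrophils, had 25.5, 20.1 and 15.8 TPM in Dync2h1 knockout flow and 0.788, 1.09 and 1.03 in Dync2h1 knockout static libraries, against 1.16, 0.703 and 1.32 in wild-type flow and 0.387, 0.291 and 0.815 in wild-type static libraries. Only the 3 knockout flow libraries were above 2 TPM. The difference of responses was 2.96 (SE 0.28, adjusted p = 0.000624), with a flow change of 3.42 in knockout and 0.47 in wild-type cells. Apart from knockout flow, values lay near or below 1 TPM, where adding 1 before the log shrinks changes. Ccl20, a chemokine for CCR6-bearing lymphocytes and dendritic cells, had 25.6, 18.9 and 25.2 TPM in Dync2h1 knockout flow and 4.48, 5.10 and 4.91 in Dync2h1 knockout static libraries, against 1.90, 1.83 and 2.91 in wild-type flow and 2.15, 1.77 and 2.26 in wild-type static libraries. The wild-type groups overlapped each other, and the knockout flow libraries lay apart from the rest (difference 1.99, SE 0.22, adjusted p = 0.0016). Nfkbia, which encodes the inhibitor that holds NF-kB in the cytoplasm, had 101, 77.4 and 77.0 TPM in Dync2h1 knockout flow and 42.5, 51.9 and 45.3 in Dync2h1 knockout static libraries, against 23.2, 27.2 and 30.7 in wild-type flow and 34.0, 34.0 and 42.9 in wild-type static libraries. It rose in knockout cells (0.85, adjusted p = 0.00097) and fell in wild-type cells (-0.44, adjusted p = 0.036), with a difference of 1.29 (SE 0.20, adjusted p = 0.0112).

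Of the 20 measured members of the NF-kB and inflammatory list, these 3 were higher, against a background of 0.522%, Relb was lower, against 0.435%, and 16 did not pass. Relb, an NF-kB subunit, had a difference of -0.57 (adjusted p = 0.0333) and passed in 2 of the 12 fits that left out 1 library. Other members rose under flow in both lines with differences that did not pass: the chemokine gene Cxcl1 changed by 3.03 in knockout and 2.45 in wild-type cells (adjusted p of the difference 0.23). The list's median difference was -0.04, beside 0.03 over all genes. The leukocyte markers Ptprc, Cd3e, Itgam and Adgre1 averaged at most 0.442 TPM in knockout groups and at most 1.48 in wild-type groups. Csf1r averaged 9.53 TPM in Dync2h1 knockout flow and 10.0 in Dync2h1 knockout static, against 6.68 in wild-type flow and 10.1 in wild-type static libraries. For Cd68 these means were 5.95 and 4.80 TPM, against 4.18 and 2.52. The whole list of 7 summed to 12.8 to 18.4 TPM in Dync2h1 knockout flow and 14.1 to 17.3 in Dync2h1 knockout static, against 10.6 to 11.4 in wild-type flow and 12.5 to 15.3 in wild-type static libraries. Its part in these rises was not tested.

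The 250 bases before the start sites of Cxcl2 and Nfkbia are shown because both carry a match to the NF-kB site, GGGA followed by any base and then TTTCC, on one of the strands, in capitals (RefSeq, GRCm38.p6; Cxcl2 chr5:90903649-90903898, plus strand; Nfkbia chr12:55492648-55492897, minus strand). The matches begin at positions -97 and -29 from the start site.
Cxcl2: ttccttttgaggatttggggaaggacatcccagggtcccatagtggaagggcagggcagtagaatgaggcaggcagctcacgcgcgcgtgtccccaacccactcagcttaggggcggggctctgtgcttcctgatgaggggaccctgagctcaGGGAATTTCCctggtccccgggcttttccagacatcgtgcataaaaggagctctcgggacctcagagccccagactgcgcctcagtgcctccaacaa
Nfkbia: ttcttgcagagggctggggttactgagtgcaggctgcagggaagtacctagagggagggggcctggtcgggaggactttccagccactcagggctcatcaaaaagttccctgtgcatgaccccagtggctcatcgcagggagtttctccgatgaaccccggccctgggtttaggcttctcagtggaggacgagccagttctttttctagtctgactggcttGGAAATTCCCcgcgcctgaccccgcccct
Of all 32851 RefSeq windows of 300 bases, from 250 before to 50 after a start, 0.411% held such a match on either strand. Of the 4 passing members of the list, 3 had a window and 2 of these held a match; the window of Ccl20 held none of these letters. A match describes the sequence and is not a measured binding site. List members that did not pass were not searched.

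Heat shock genes formed the list with the most passing members on the higher side. They encode chaperones that refold proteins and are driven by the factor HSF1. Of 19 measured members, 10 were higher in Dync2h1 knockout cells against a background of 0.522%, none was lower and 9 did not pass. The list's median difference was 0.50, beside 0.03 over all genes. Flow raised 16 of the 19 in knockout and 11 in wild-type cells, against 16.3% and 14% of all genes. Hspa1b, an inducible HSP70, had 363, 364 and 377 TPM in Dync2h1 knockout flow and 48.0, 50.1 and 45.3 in Dync2h1 knockout static libraries, against 67.9, 83.5 and 86.6 in wild-type flow and 28.5, 25.5 and 25.8 in wild-type static libraries. All knockout flow libraries were more than 4 times any wild-type library, and no groups overlapped. The difference was 1.38 (SE 0.12, adjusted p = 0.000401), and in TPM it was 267 ± 7.48 (SE).

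Hspe1 encodes HSP10, the small lid of the mitochondrial chaperonin. It had 258, 221 and 263 TPM in Dync2h1 knockout flow and 134, 118 and 119 in Dync2h1 knockout static libraries, against 189, 162 and 176 in wild-type flow and 185, 167 and 157 in wild-type static libraries. It rose in knockout cells, while the wild-type flow and static libraries overlapped (difference 0.94, SE 0.13, adjusted p = 0.00617). Hspe1-ps2 and Hspe1-ps3, named as its pseudogene copies, also passed, with differences of 0.69 and 0.68. Of these, Hspe1-ps2 rose in wild-type cells as well (0.50, adjusted p = 0.0028). Hspe1 may have shared reads with these copies, which leaves its wild-type change uncertain. Its chaperonin partner Hspd1 (HSP60) averaged 505 TPM in Dync2h1 knockout flow and 257 in Dync2h1 knockout static, against 314 in wild-type flow and 226 in wild-type static libraries, a difference of 0.50 (SE 0.08, adjusted p = 0.021) that passed in 6 of the 12 fits that left out 1 library, with an adjusted p of 0.0721 without wild-type flow replicate 2. Hsp90aa1, the inducible HSP90, had 1904, 1910 and 1967 TPM in Dync2h1 knockout flow and 945, 947 and 946 in Dync2h1 knockout static libraries, against 882, 893 and 941 in wild-type flow and 609, 621 and 623 in wild-type static libraries. Flow added 981 TPM in knockout and 287 TPM in wild-type cells, a difference of 693 ± 27.3 TPM (SE), and on the log2 scale the difference was 0.47 (SE 0.07, adjusted p = 0.00749). Dnajb1, the HSP40 partner of HSP70, had 161, 158 and 149 TPM in Dync2h1 knockout flow and 56.4, 65.5 and 60.8 in Dync2h1 knockout static libraries, against 87.0, 95.9 and 95.8 in wild-type flow and 56.4, 54.2 and 56.3 in wild-type static libraries. Its static groups overlapped and its flow groups did not (difference 0.62, adjusted p = 0.0107).

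Hspa1a, Dnaja1, Hspb8, Hspa4l and Hspa8 made up the remaining passing members, with differences between 0.43 and 1.06. With 1 library left out, each passed in 1 or 2 of 12 fits, with adjusted p up to 0.118. Hspa1a, the twin of Hspa1b, had 10.8, 11.6 and 10.7 TPM in Dync2h1 knockout flow and 0.498, 0.712 and 0.630 in Dync2h1 knockout static libraries, against 4.28, 5.04 and 6.29 in wild-type flow and 0.692, 0.658 and 0.806 in wild-type static libraries. The twins are nearly identical in sequence, so how their reads were shared between them is uncertain. Hspb8, a small heat shock protein, was lower in knockout cells in both conditions, with means of 8.17 TPM in Dync2h1 knockout flow and 4.14 in Dync2h1 knockout static, against 29.3 in wild-type flow and 24.9 in wild-type static libraries. Its TPM difference was -0.36 ± 1.22 (SE), against a log2 difference of 0.61. Hsph1, a disaggregase partner of HSP70, changed by 1.83 in knockout and 1.10 in wild-type cells and its difference did not pass (0.73, adjusted p = 0.18). The factor genes Hsf1 and Hsf2 had differences of 0.01 each.

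Scaling bore on this list. Without rescaling, 2 members passed, Hspa1b and Hspe1, and the list's median difference was 0.37, or 0.45 above the median of all genes, against 0.50 and 0.47 above it with the scaling used. Hsp90aa1 then had an adjusted p of 0.166 and Dnajb1 of 0.111. Hspa1b, Hspe1, Hsp90aa1 and Dnajb1 passed in all 12 fits that left out 1 library, but Hspe1 and Hsp90aa1 did not pass in the fit over 18 libraries (adjusted p 0.0763 and 0.138), and Hspa1a and Hspa8 passed in 2 of them each, with adjusted p up to 0.0816 and 0.118.

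**Figure D2:**
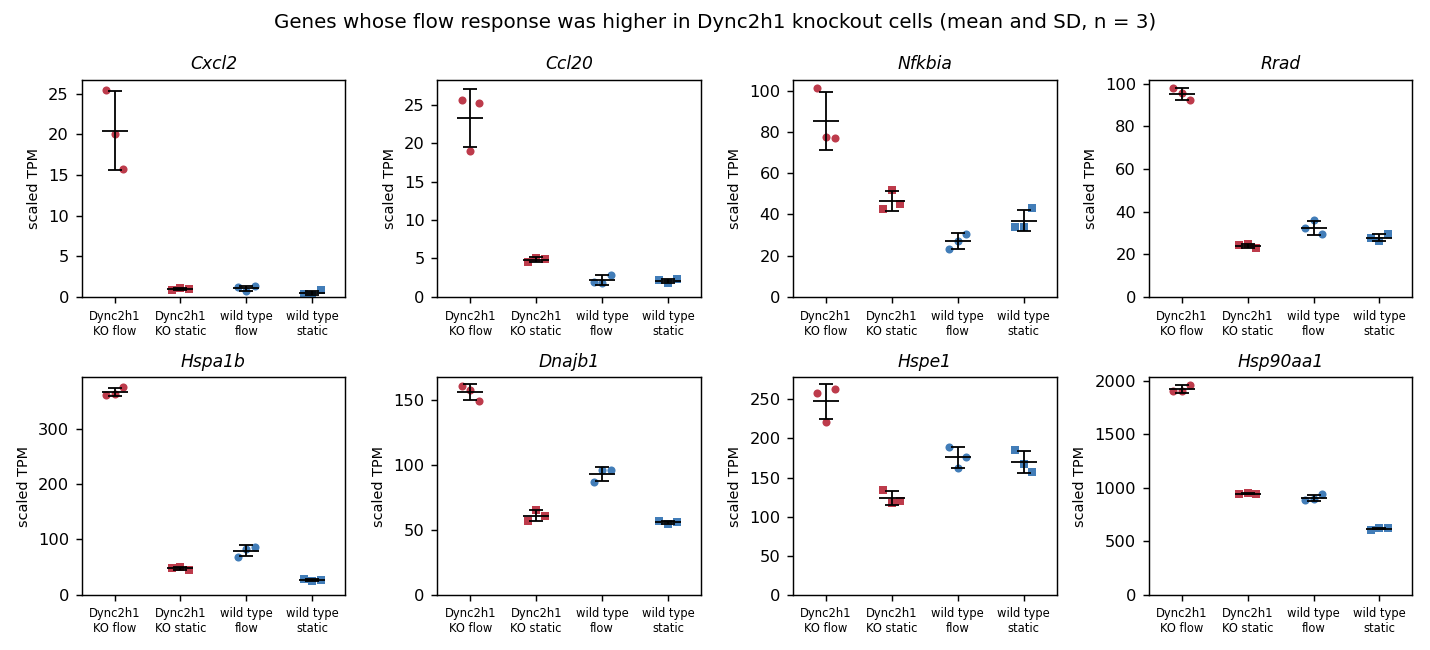
Scaled TPM in each library for 8 genes whose difference of flow responses was higher in Dync2h1 knockout cells; circles are flow and squares static libraries, red is Dync2h1 knockout and blue wild type, and bars give the mean and SD of 3 libraries. The Dync2h1 knockout flow libraries stand above all others in all 8 panels, for Hspa1b at 363 to 377 TPM against 67.9 to 86.6 in wild-type flow libraries.

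The promoters of Hspa1b and Hspe1 are shown because both hold a match to the core of the heat shock element, GAANNTTC, which reads the same on both strands and is given in capitals (RefSeq, GRCm38.p6; Hspa1b chr17:34959239-34959488, minus strand; Hspe1 chr1:55087898-55088147, plus strand). The matches begin at positions -104 and -84.
Hspa1b: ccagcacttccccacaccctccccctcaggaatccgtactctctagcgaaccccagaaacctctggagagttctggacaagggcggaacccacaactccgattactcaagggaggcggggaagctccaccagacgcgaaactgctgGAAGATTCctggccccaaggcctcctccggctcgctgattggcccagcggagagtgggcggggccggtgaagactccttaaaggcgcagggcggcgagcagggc
Hspe1: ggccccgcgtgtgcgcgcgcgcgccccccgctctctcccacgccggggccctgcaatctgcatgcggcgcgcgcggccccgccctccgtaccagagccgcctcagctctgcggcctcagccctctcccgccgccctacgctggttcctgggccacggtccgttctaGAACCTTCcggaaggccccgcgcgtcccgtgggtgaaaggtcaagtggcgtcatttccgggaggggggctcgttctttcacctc
Of all RefSeq windows 7.86% held the core. Of the 10 passing members 8 had a window, and 6 of those 8 held the core in at least 1 window, while Hspa4l and Dnajb1 did not. The share of 7.86% counts single windows, whereas some members had several. Dnaja1 held the core in 1 of 3 windows, Hspd1 in 1 of 2 and Dnajb1 in 0 of 2. Heat shock genes that did not pass were not searched. The counts therefore do not bear on the difference of responses, and a match is not a measured binding site.

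Rrad had the smallest p on the higher side. It encodes a small GTPase of the RGK family that restrains calcium channels. It had 97.8, 95.9 and 92.3 TPM in Dync2h1 knockout flow and 24.1, 24.7 and 23.1 in Dync2h1 knockout static libraries, against 32.3, 35.9 and 29.4 in wild-type flow and 27.5, 26.3 and 29.6 in wild-type static libraries. The 3 knockout flow libraries lay far above the other 9, which spanned 23.1 to 35.9 TPM (difference 1.73, SE 0.11, adjusted p = 3.88e-05; chr8:104628070-104631327). Tsc22d1, a leucine zipper protein induced by TGF-beta, had 285, 259 and 264 TPM in Dync2h1 knockout flow and 139, 148 and 137 in Dync2h1 knockout static libraries, against 161, 181 and 176 in wild-type flow and 191, 187 and 185 in wild-type static libraries. It rose in knockout cells and the wild-type change did not pass (-0.12, adjusted p = 0.17), with a difference of 1.04 (SE 0.08, adjusted p = 0.000178). Adamts1, a secreted matrix protease, rose in knockout cells (0.30, adjusted p = 0.0021) and fell in wild-type cells (-0.29, adjusted p = 0.0024), a difference of 0.60 (adjusted p = 0.00501) that did not pass without rescaling (adjusted p = 0.134).

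Further genes were among the 15 largest positive differences. Park2, the ubiquitin ligase parkin, had 286, 275 and 229 TPM in Dync2h1 knockout flow and 115, 135 and 130 in Dync2h1 knockout static libraries, against 74.7, 56.7 and 73.8 in wild-type flow and 81.9, 66.0 and 73.7 in wild-type static libraries. The wild-type groups overlapped and the knockout groups did not (difference 1.16, adjusted p = 0.0107, in all 12 fits that left out 1 library; 0.161 in the fit over 18 libraries). The histone deacetylase gene Hdac1 (1.15), the kinase gene Alpk2 (1.08), the SAGA subunit gene Sgf29 (1.10), the complement factor gene Cfb (1.23) and Zbtb40 (0.90) passed in 1 to 3 of the 12 such fits. Hdac1 stood at 642, 620 and 478 TPM in Dync2h1 knockout flow and 206, 274 and 298 in Dync2h1 knockout static libraries, against 103, 115 and 132 in wild-type flow and 138, 99.5 and 112 in wild-type static libraries. The highest adjusted p for these 5 genes when 1 library was left out lay between 0.081 (Alpk2) and 0.126 (Cfb).

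Targets of ERK signalling held the gene with the strongest evidence on the lower side. ERK is the last kinase of the RAS cascade, and several of its targets are phosphatases and Sprouty proteins that shut it down again. Dusp6 (chr10:99263231-99267489), the phosphatase that inactivates ERK in the cytoplasm, had 176, 170 and 170 TPM in Dync2h1 knockout flow and 80.1, 78.2 and 75.0 in Dync2h1 knockout static libraries, against 217, 188 and 166 in wild-type flow and 24.0, 21.6 and 23.5 in wild-type static libraries. The flow groups overlapped and the static groups did not: knockout static libraries stood 1.71 above wild type (adjusted p = 9.8e-08). The rise was 1.13 in knockout and 2.98 in wild-type cells, a difference of -1.85 (SE 0.12, adjusted p = 3.88e-05). In TPM the rise was 94.0 in knockout and 167 in wild-type cells.

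Dusp4, a nuclear phosphatase of the same family, had 26.0, 26.7 and 27.8 TPM in Dync2h1 knockout flow and 7.41, 8.26 and 7.36 in Dync2h1 knockout static libraries, against 39.3, 38.5 and 37.4 in wild-type flow and 5.18, 4.58 and 4.88 in wild-type static libraries. Here the knockout level was above wild type in static and below it in flow libraries (difference -1.06, SE 0.11, adjusted p = 0.000944). Of 18 measured members of the list, 5 were lower against a background of 0.435%, none was higher and 13 did not pass. The median difference was -0.40. Flow raised 14 of the 18 in knockout and 16 in wild-type cells, against 16.3% and 14% of all genes, and 14 of them stood higher in knockout static libraries, against 17.2%. The other 3 that passed were Ccnd1 (cyclin D1), Spry1 (Sprouty 1) and Etv4 (an ETS factor), with differences of -0.56, -0.69 and -0.81. Spry1 passed in 3 and Etv4 in 2 of the 12 fits that left out 1 library, with adjusted p up to 0.095 for Spry1 and 0.113 for Etv4. Dusp5, the nuclear ERK phosphatase, rose by 2.53 in knockout and 3.13 in wild-type cells without a passing difference (adjusted p = 0.10), and Fosl1, an AP-1 subunit, rose by 2.42 in knockout and 2.36 in wild-type cells (adjusted p = 0.93).

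Targets of YAP and TAZ were lower for 4 of 18 measured members and higher for none, against a background of 0.435% lower, with a list median of -0.18 beside 0.03 over all genes. Ctgf (Ccn2; chr10:24595442-24598683), a matricellular growth factor and a standard YAP target, had 786, 747 and 742 TPM in Dync2h1 knockout flow and 304, 343 and 362 in Dync2h1 knockout static libraries, against 519, 492 and 502 in wild-type flow and 67.5, 77.6 and 92.3 in wild-type static libraries. The knockout libraries were above wild type in both conditions. The fold rise was smaller in knockout cells, 1.17 against 2.67 on the log2 scale (difference -1.50, SE 0.14, adjusted p = 0.000594). The rise in TPM was 422 in knockout and 425 in wild-type cells, a difference of -3.51 ± 24.4 (SE). Cyr61 (Ccn1), its paralog, gained 297 TPM in knockout and 417 TPM in wild-type cells (log2 difference -0.74, SE 0.11, adjusted p = 0.0127). Dlc1 (-0.77), which encodes a GTPase-activating protein, and the stress gene Gadd45a (-0.60) were the others, and each passed in 3 of the 12 fits that left out 1 library. Ankrd1, another standard target, changed by 0.33 in knockout and 0.67 in wild-type cells (adjusted p of the difference 0.15).

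Plau encodes urokinase, a protease that activates plasminogen, and rose in both lines with a lower fold in knockout cells. It had 398, 343 and 383 TPM in Dync2h1 knockout flow and 238, 254 and 268 in Dync2h1 knockout static libraries, against 221, 177 and 191 in wild-type flow and 61.9, 60.1 and 75.3 in wild-type static libraries. Its difference was -1.005 (SE 0.14, adjusted p = 0.00868), with 121 TPM gained in knockout and 131 TPM in wild-type cells. Thbs1 (thrombospondin 1) gained 115 TPM in knockout and 294 TPM in wild-type cells (-0.74, adjusted p = 0.0279) and passed in 2 of the 12 fits that left out 1 library. Of 22 measured matrix and protease genes, 3 were lower, against 0.435% of all genes, and 1, Adamts1, was higher, against 0.522%.

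ATF4 and its amino acid response genes gave 3 lower members of 20 measured, against a background of 0.435%, none higher, and a median of -0.18 beside 0.03 over all genes. ATF4 is the transcription factor made when the integrated stress response slows translation, and flow raised 18 of the 20 genes in each line, against 16.3% of all genes in knockout and 14% in wild-type cells. Chac1, which degrades glutathione, had 56.3, 49.1 and 50.9 TPM in Dync2h1 knockout flow and 12.4, 14.4 and 11.2 in Dync2h1 knockout static libraries, against 54.3, 53.2 and 46.4 in wild-type flow and 3.93, 4.82 and 4.29 in wild-type static libraries. The flow groups overlapped, and the static level was higher in every knockout library (difference -1.33, SE 0.15, adjusted p = 0.00178). Atf4 itself had 493, 447 and 468 TPM in Dync2h1 knockout flow and 239, 245 and 243 in Dync2h1 knockout static libraries, against 347, 375 and 381 in wild-type flow and 130, 138 and 135 in wild-type static libraries. It gained 227 TPM in knockout and 233 TPM in wild-type cells, with a log2 difference of -0.50 (SE 0.08, adjusted p = 0.0124; 0.0817 in the fit over 18 libraries). Trib3, a pseudokinase induced by ATF4, gained 30.1 TPM in knockout and 23.0 TPM in wild-type cells, while its log2 difference was -1.02 (SE 0.16, adjusted p = 0.0151); without wild-type flow replicate 2 the adjusted p was 0.0505. In static libraries 18 of the 20 list members stood higher in knockout cells, against 17.2% of all genes.

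**Figure D3:**
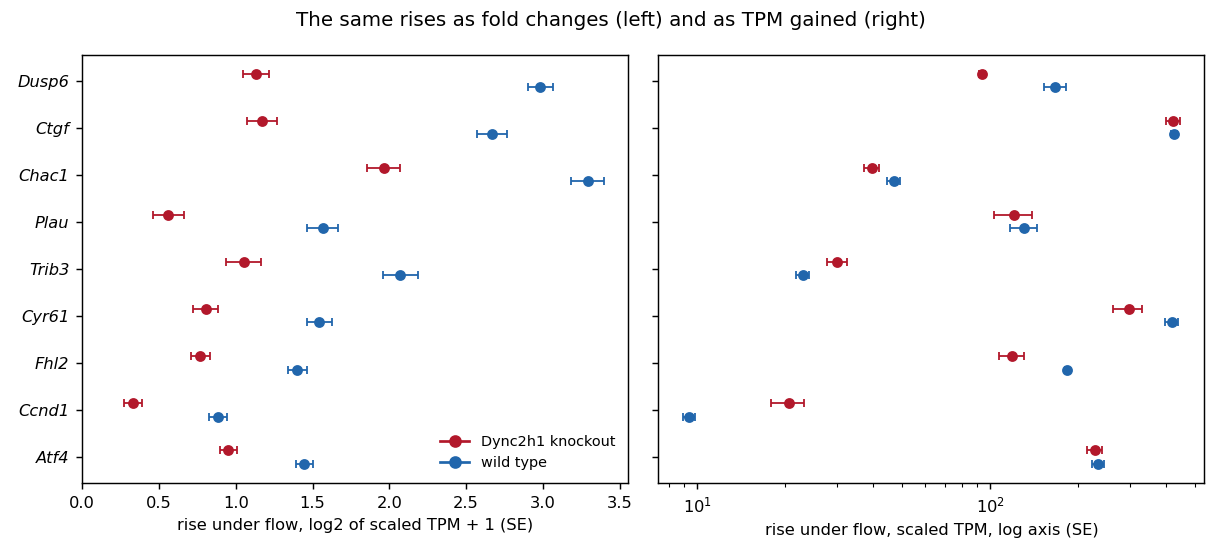
Rise under flow in Dync2h1 knockout (red) and wild-type (blue) cells for 9 genes whose log2 difference was lower, as log2 of scaled TPM + 1 on the left and as scaled TPM on a log axis on the right, with SE. Every red point lies left of its blue point on the left, whereas on the right Ctgf (422 against 425 TPM) and Atf4 (227 against 233) nearly coincide and Trib3 and Ccnd1 lie to the right.

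The promoter of Chac1 is shown because it holds a match to the amino acid response element TGATGNAA, here on the other strand and in capitals, at position -193 (RefSeq, GRCm38.p6; chr2:119350992-119351241, plus strand).
Chac1: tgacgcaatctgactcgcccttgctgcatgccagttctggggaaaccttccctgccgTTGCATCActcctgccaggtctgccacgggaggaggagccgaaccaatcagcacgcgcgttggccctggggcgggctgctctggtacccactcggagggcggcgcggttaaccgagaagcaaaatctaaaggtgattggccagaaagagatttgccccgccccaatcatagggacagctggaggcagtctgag
Of all RefSeq windows 3.97% held this motif on either strand, and of the 3 passing members, all with a window, 2 did (Chac1 and Trib3). Members of this list that did not pass were not searched.

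The log2 and TPM scales parted for few of the 154 genes. The TPM difference lay within 2 SE of 0 for 7 of the 70 lower genes, among them Ctgf, Plau, Atf4, Egln3, Etv4 and Tmem176b, and for 2 of the 84 higher ones, Ifit3 and Hspb8. It had the opposite sign for Ccnd1, Trib3 and Hspb8. Ccnd1 had 103, 98.5 and 97.5 TPM in Dync2h1 knockout flow and 76.7, 83.0 and 77.8 in Dync2h1 knockout static libraries, against 18.98, 19.1 and 20.3 in wild-type flow and 10.3, 9.89 and 9.96 in wild-type static libraries. Its rise was larger in TPM in knockout cells, by 11.2 ± 2.69 (SE), and smaller as a fold (difference -0.56, SE 0.08, adjusted p = 0.0107). The TPM differences were not tested.

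Cholesterol synthesis genes held 5 members with a lower flow response in knockout cells. Their shared regulator, SREBP2, is held back by the protein INSIG1 when sterol is ample. Of 25 measured members, 5 were lower against a background of 0.435%, none was higher and 20 did not pass, with a median difference of -0.26 beside 0.03 over all genes. Flow lowered 14 of them and raised none in knockout cells, where it lowered 10% and raised 16.3% of all genes. In wild-type cells it lowered 8 and raised 6, where it lowered 12.6% and raised 14% of all genes. Insig1 had 163, 165 and 162 TPM in Dync2h1 knockout flow and 261, 287 and 268 in Dync2h1 knockout static libraries, against 371, 348 and 335 in wild-type flow and 307, 292 and 290 in wild-type static libraries. It fell in knockout cells (-0.73, adjusted p = 3.8e-06) and rose in wild-type cells (0.25, adjusted p = 0.0061), a difference of -0.98 (SE 0.08, adjusted p = 0.000178). Hmgcs1, the synthase at the head of the pathway, had 71.9, 69.2 and 80.1 TPM in Dync2h1 knockout flow and 162, 169 and 187 in Dync2h1 knockout static libraries, against 126, 119 and 118 in wild-type flow and 148, 159 and 160 in wild-type static libraries. It fell in both lines, by 1.22 in knockout and by 0.36 in wild-type cells on the log2 scale (difference -0.85, SE 0.10, adjusted p = 0.00225).

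Sqle, the squalene epoxidase, had 86.0, 85.2 and 87.0 TPM in Dync2h1 knockout flow and 132, 146 and 148 in Dync2h1 knockout static libraries, against 111, 110 and 107 in wild-type flow and 109, 112 and 117 in wild-type static libraries. The wild-type groups overlapped, and the knockout fall was -0.71 (difference -0.67, SE 0.08, adjusted p = 0.00178). Msmo1, a sterol demethylase, followed with -0.54 (adjusted p = 0.00335), and Hsd17b7, the ketoreductase of that step, with -1.08 (adjusted p = 0.00599). These 5 genes passed in all 12 fits that left out 1 library and without rescaling; Msmo1 did not pass in the fit over 18 libraries (adjusted p = 0.193). Srebf2, which encodes SREBP2, had a difference of -0.02.

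The promoter of Hmgcs1 is shown because it was the only one of the 4 passing members with a window that held the sterol regulatory element TCACNCCAC, in capitals at position -137 (RefSeq, GRCm38.p6; chr13:119690101-119690350, plus strand).
Hmgcs1: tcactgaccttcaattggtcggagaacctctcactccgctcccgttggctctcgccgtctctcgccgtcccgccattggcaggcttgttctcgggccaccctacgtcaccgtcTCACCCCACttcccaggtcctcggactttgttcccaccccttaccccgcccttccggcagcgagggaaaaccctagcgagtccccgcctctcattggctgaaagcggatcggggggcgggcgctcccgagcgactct
Of all RefSeq windows 1.24% held this motif on either strand. Cholesterol genes that did not pass were not searched.

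**Figure D4:**
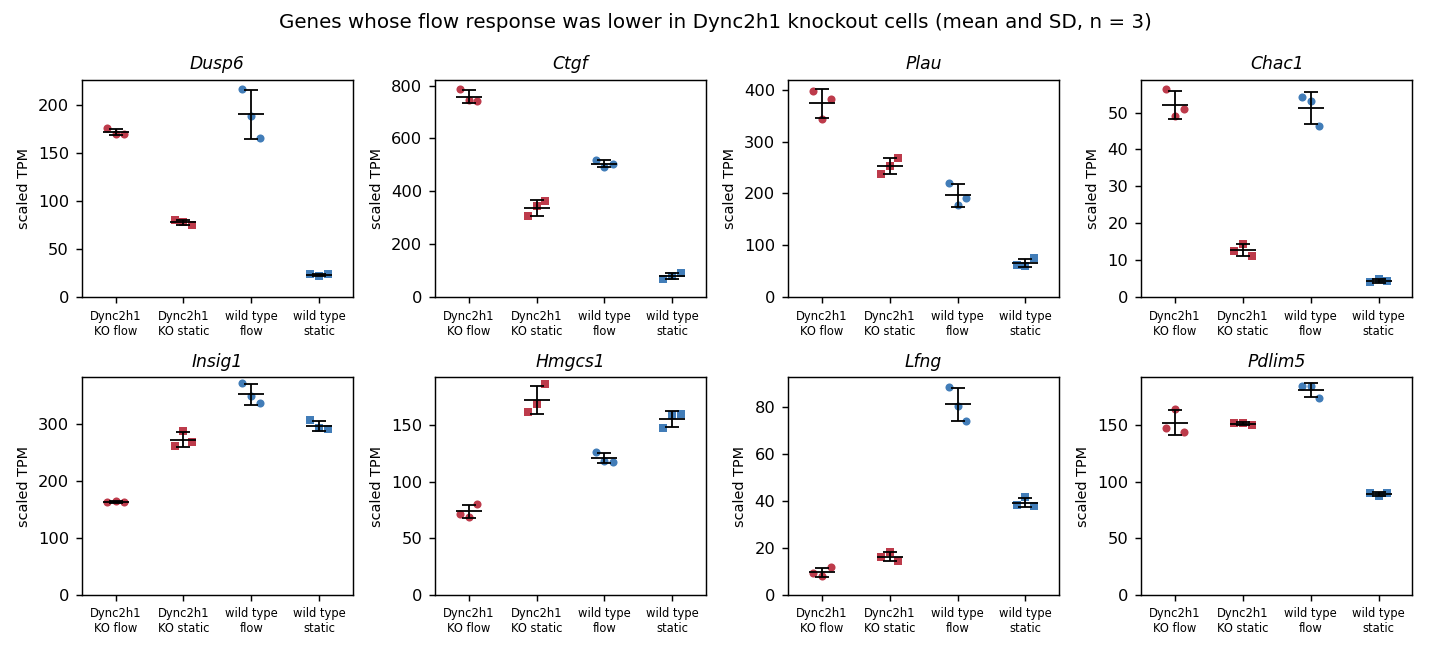
Scaled TPM in each library for 8 genes whose difference of flow responses was lower in Dync2h1 knockout cells, with symbols and colours for condition and line as in the plot of the higher genes and bars for the mean and SD of 3 libraries. Ctgf, Plau, Dusp6 and Chac1 have higher knockout static levels, Insig1 and Hmgcs1 fall in knockout cells, and Pdlim5 is flat in knockout cells at 144 to 165 TPM.

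The genes Lfng, Pdlim5 and Vcl responded in one direction in wild-type cells, and in knockout cells their change did not pass or was opposite. Lfng (Lunatic fringe), a glycosyltransferase that modifies Notch receptors, had 9.05, 8.01 and 11.7 TPM in Dync2h1 knockout flow and 16.1, 18.1 and 14.3 in Dync2h1 knockout static libraries, against 88.5, 80.5 and 74.2 in wild-type flow and 38.2, 41.5 and 37.9 in wild-type static libraries. It fell in knockout cells (-0.71, adjusted p = 0.0018) and rose in wild-type cells (1.03, adjusted p = 0.00014), a difference of -1.74 (SE 0.18, adjusted p = 0.000944). It was the only passing gene of 13 measured Notch pathway genes, against 0.956% of all genes in either direction. Pdlim5, a scaffold of actin stress fibres, had 148, 165 and 144 TPM in Dync2h1 knockout flow and 152, 152 and 150 in Dync2h1 knockout static libraries, against 185, 184 and 174 in wild-type flow and 90.1, 87.3 and 89.9 in wild-type static libraries. The knockout groups overlapped while wild-type cells rose by 1.01 (difference -1.01, SE 0.08, adjusted p = 0.000178). Vcl, which encodes the focal adhesion protein vinculin, gained 8.51 TPM in knockout and 92.4 TPM in wild-type cells (-0.72, adjusted p = 0.00501). Its static mean was already higher in knockout than in wild-type cells, 188 against 127 TPM (adjusted p = 7.2e-05). Fhl2, a LIM protein, rose in both lines, by 0.77 in knockout and 1.40 in wild-type cells (-0.63, adjusted p = 0.00665, and 0.0573 in the fit over 18 libraries). Vcl and Fhl2 were the 2 lower members of 20 measured SRF and actin genes, against 0.435% of all genes, and none was higher.

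Txnrd3, a thioredoxin reductase, had a flow change of 0.03 in knockout and 1.06 in wild-type cells (difference -1.03, SE 0.11, adjusted p = 0.000944). Its static mean was 51.4 TPM in knockout and 21.9 TPM in wild-type cells, and its wild-type flow mean was 46.7 TPM. Kctd11, an adaptor for ubiquitin ligases, changed by 0.36 in knockout and 1.62 in wild-type cells (-1.26, SE 0.14, adjusted p = 0.00144). Cldn3, a tight junction claudin, had 33.1, 34.4 and 35.0 TPM in Dync2h1 knockout flow and 36.9, 39.8 and 37.1 in Dync2h1 knockout static libraries, against 35.2, 35.6 and 35.5 in wild-type flow and 21.0, 24.1 and 23.2 in wild-type static libraries. The wild-type static libraries lay below the other 9 (difference -0.77, adjusted p = 0.00282). Cldn1, the other claudin that passed, fell by 0.84 in knockout cells and the wild-type change was -0.14 (difference -0.70, adjusted p = 0.0227, in 5 of the 12 fits that left out 1 library). These were the 2 lower members of 25 measured junction and keratin genes, against 0.435% of all genes, with none higher. Bhlhe40, a repressor of the clock, changed by -0.27 in knockout and 0.80 in wild-type cells (difference -1.08, adjusted p = 0.0371, in 4 of those fits). It was the only passing member of 28 measured immediate early genes, against 0.956% of all genes in either direction.

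Of the hypoxia genes outside glycolysis, 2 of 19 measured members passed, both lower, against a background of 0.435%. Ankrd37, a target of HIF-1, had 3.57, 4.54 and 4.52 TPM in Dync2h1 knockout flow and 74.0, 80.6 and 78.3 in Dync2h1 knockout static libraries, against 5.73, 4.87 and 5.18 in wild-type flow and 56.8, 45.8 and 45.4 in wild-type static libraries. It fell steeply in both lines, by 3.92 in knockout and by 3.00 in wild-type cells on the log2 scale (difference -0.92, adjusted p = 0.021, in 8 of the 12 fits that left out 1 library). Egln3, a prolyl hydroxylase that marks HIF for destruction, fell by 1.72 in knockout and by 0.59 in wild-type cells (difference -1.13, SE 0.16, adjusted p = 0.00922). In TPM the falls were -2.74 in knockout and -2.54 in wild-type cells. Lpin1, a phosphatidate phosphatase, fell by 2.03 in knockout and by 0.82 in wild-type cells (difference -1.21, adjusted p = 0.0309, in 3 of those fits). In the TGF-beta and BMP list 3 of 18 measured members were lower, among them Id2 and Bmp2, against 0.435% of all genes, with none higher; Id2, an inhibitor of basic helix-loop-helix factors, had -0.92 (adjusted p = 0.0208, in 8 of those fits), and Bmp2, a ligand under 3 TPM in every library, had -0.98 (adjusted p = 0.039, in none of them).

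Interferon-stimulated genes had 2 higher members of 20, against a background of 0.522%, and none lower. Ifit3, an antiviral RNA-binding factor, changed by -0.26 in knockout cells and fell by 1.13 in wild-type cells (difference 0.87, adjusted p = 0.031), and Irf1, an interferon regulatory factor, had 0.78 (adjusted p = 0.039). They passed in 4 and 3 of the 12 fits that left out 1 library. Of 11 measured mitochondrially encoded genes 1 was lower, against 0.435% of all genes, namely mt-Atp8 (-0.67, adjusted p = 0.021, in 7 of those fits), and the list's median was -0.39. The share of all TPM from mitochondrially encoded genes was 0.20% to 0.22% in Dync2h1 knockout flow and 0.26% to 0.29% in Dync2h1 knockout static, against 0.28% to 0.32% in wild-type flow and 0.26% to 0.34% in wild-type static libraries; its part in other differences was not tested. Of 25 cytosolic ribosomal protein genes 1 was higher, against 0.522% of all genes, namely Rps18 (0.57, adjusted p = 0.0436, in 1 of those fits), with a median of 0.27; ribosomal genes have many pseudogene copies, so their values are uncertain.

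**Figure D5:**
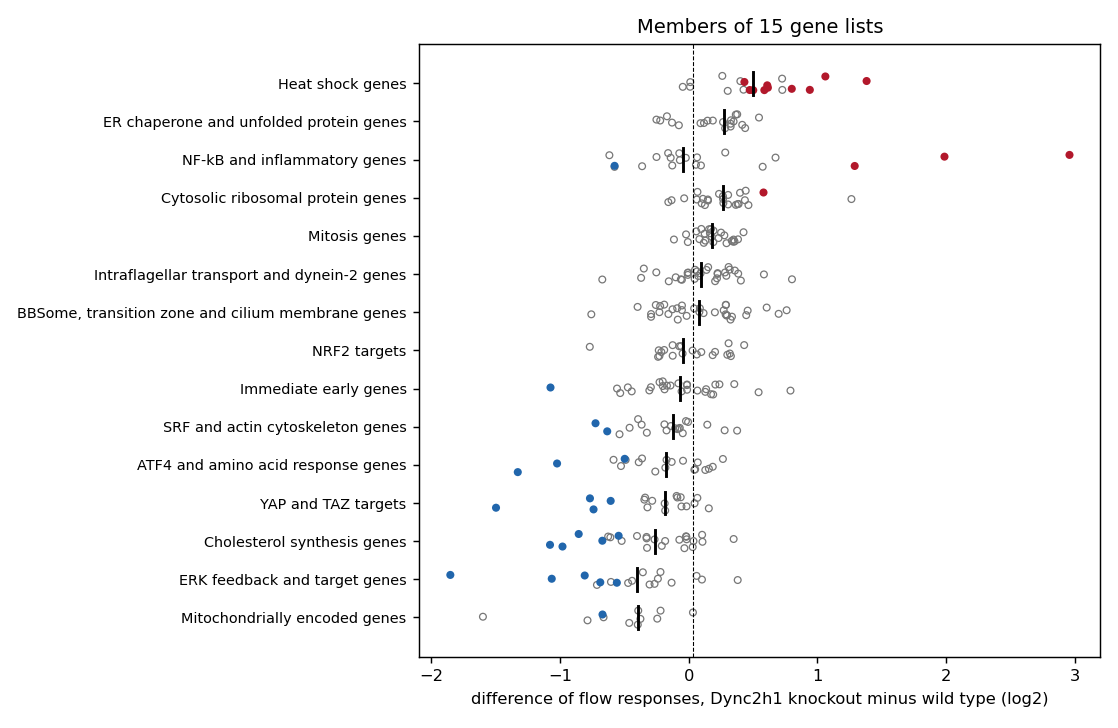
Difference of flow responses (log2, Dync2h1 knockout minus wild type) of every measured member of 15 gene lists; filled points passed, red higher and blue lower, open points did not pass, black bars are list medians and the dashed line is the median of all genes, 0.03. Heat shock genes lie to the right with 10 passing members, and ERK, cholesterol and YAP target lists have passing members to the left only.

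The genes of the cilium itself had no passing member. Of 31 measured intraflagellar transport and dynein-2 genes and 33 genes of the BBSome, transition zone and ciliary membrane, none had a difference that passed in either direction, against a background of 0.956%. Their median differences were 0.09 and 0.08, beside 0.03 over all genes. Without rescaling they were -0.02 and -0.05, beside -0.09 over all genes. Above the median of all genes they stood by 0.06 and 0.05 with the scaling used, and by 0.06 and 0.04 without it. In static culture 18 genes of each list stood lower in Dync2h1 knockout than in wild-type cells, against 17.3% of all genes, and none stood higher. NRF2 targets, which respond to oxidative stress, had no passing member of 21, against 0.956% of all genes, and a median of -0.05. Hmox1, heme oxygenase 1 and the strongest rise of that list, rose by 5.16 in knockout and 5.40 in wild-type cells (difference -0.24, adjusted p = 0.48). Among Hedgehog pathway genes, which signal through the cilium, Ccnd1 was the only passing member of 9 measured, against 0.956% of all genes, and 8 were under the filter. No member of the WNT, p53, glycolysis, mitosis, S phase or ER chaperone lists passed, against 0.956% of all genes. At that share lists of this size would hold few passing members, so these counts do not show equal responses. The list medians were -0.16 for WNT, -0.13 for p53, -0.08 for glycolysis, 0.18 for mitosis, 0.16 for S phase and 0.28 for ER chaperone genes, beside 0.03 over all genes.

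The Ift140 knockout line, which lacks a subunit of the IFT-A complex, offers values to set beside these. They come from a fit over all 18 libraries and 16718 genes, in which 14 genes (0.0837%) had a flow response that differed between the Dync2h1 and the Ift140 line, 9 higher (0.0538%) and 5 lower (0.0299%). Both comparisons use the same Dync2h1 knockout libraries, so they are not independent. The flow change of Rrad was 0.16 in Ift140 knockout cells, and the Dync2h1 minus Ift140 difference was 1.78 (adjusted p = 3.9e-05). For Cxcl2 the flow change in Ift140 knockout cells was 0.56 and the difference 2.88 (adjusted p = 0.00021). Nfkbia changed by -0.55 in Ift140 knockout cells, with a difference of 1.40 (adjusted p = 0.028), and Tsc22d1 by 0.34, with 0.58 (adjusted p = 0.028). These 4 genes rose more in the Dync2h1 line than in either other line.

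Other genes did not differ between the knockout lines at this precision. The flow change of Hspa1b was 3.15 in Ift140 knockout cells (difference -0.23, adjusted p = 0.62), of Ctgf 1.33 (-0.16, adjusted p = 0.77), of Hmgcs1 -1.03 (-0.19, adjusted p = 0.63) and of Fhl2 0.77 (-0.01, adjusted p = 0.99). A difference that does not pass does not show equal responses. Hspa1a went the other way, with a flow change of 4.24 in Ift140 knockout cells and a Dync2h1 minus Ift140 difference of -1.32 (adjusted p = 0.01). Egln3 passed on the lower side (-0.98, adjusted p = 0.031). Dusp6 changed by 1.81 in Ift140 knockout cells, between its changes of 1.13 in Dync2h1 knockout and 2.98 in wild-type cells (difference -0.68, adjusted p = 0.059). The count of 14 was also 14 without Dync2h1 knockout flow replicate 3, was 23 without Ift140 knockout flow replicate 3, and was 4 to 8 without any other single library of these 2 lines.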

How the data were processed

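RNA of 12 libraries was compared, Dync2h1 knockout and wild-type IMCD3 cells under flow and static, 3 libraries a group. The authors deposited TPM, recorded as a score here because 1 extra row per file repeats the sum of the others; that row, named total, was left out. Per the submitters' processing notes, FastQC 0.11.5, Bowtie2 2.1.0 and RSEM 1.2.31 were used, with builds mm10 and GRCm38.p5; the annotation release and strand setting are not given in the sources used here. TPM keeps no depth, so the precision set by depth is not known. Genes with near-identical copies (Hspa1a and Hspa1b, ribosomal genes) are uncertain, as is Hspe1, which has rows named as its pseudogene copies. Of the 49845 names, 26 had been turned into calendar dates.

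Libraries were scaled by a trimmed mean of log ratios (30% of ratios, 5% of abundances, no weights). Genes that reached 1 TPM in 3 or more of 12 libraries entered a fit of 4 group means on log2(TPM + 1) with limma 3.58.1 (R 4.3.3), empirical Bayes with a mean-variance trend and 8 residual degrees of freedom. The adjusted p-values are Benjamini-Hochberg over all genes tested, with no minimum fold. An exact test of 3 against 3 libraries cannot go below 0.1 and was not used. Differences in TPM carry an SE from the 4 group SDs and no test. On simulated data with independent noise for each gene, the method found most large changes again, with false calls above the nominal share. Noise shared between genes was not simulated, so the share of false calls in the real data is not known.

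Named genes are the 15 largest differences in each direction with a mean of at least 5 TPM in 1 group, up to 4 passing members of each list by smallest p, Dync2h1, and the 3 largest TPM differences in each direction, without predicted genes; genes set beside them that did not pass are list members chosen after their values were seen. Some genes are not reported here. Members and lists were chosen with earlier results of these data known. Coordinates are from GENCODE vM21 (GRCm38), promoters from RefSeq (GRCm38.p6). Alternatives changed the scaling, filter, pseudocount, threshold, libraries, trend, weights and use of replicate numbers.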

Additional observations from a re-analysis of the deposited data

Results flagged for a closer look

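The named genes whose flow response differed between the Dync2h1 knockout and the wild-type line by limma's test of the difference are listed here with that difference on the log2 scale, Dync2h1 knockout minus wild type. They rest on 3 libraries a group. The groups below follow the sign of the fitted changes, and some of these changes did not pass. Examples are Pdlim5 in knockout cells (0.005, adjusted p = 0.96) and Hdac1 in wild-type cells (0.01, adjusted p = 0.97). Of these 55 genes, 23 passed in every fit tried, 37 in the fit over all 18 libraries and 42 without rescaling.

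Genes whose fitted change under flow was positive in knockout and negative in wild-type cells had differences of Nfkbia 1.29, Cfb 1.23, Park2 1.16, Sgf29 1.10, Alpk2 1.08, Tsc22d1 1.04 and Zbtb40 0.90. Further such differences were Irf1 0.78, Adamts1 0.60 and Rps18 0.57. Positive in both, and larger in knockout cells, were Cxcl2 2.96, Ccl20 1.99, Rrad 1.73, Hspa1b 1.38, Hdac1 1.15, Hspa1a 1.06 and Hspe1 0.94. Further such differences were Dnajb1 0.62, Hsp90aa1 0.47 and Hspa8 0.43. Ifit3, negative in both and smaller in knockout cells, had 0.87.

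Genes whose fitted change was positive in both lines and smaller in knockout cells had differences of Dusp6 -1.85, Ctgf -1.50, Chac1 -1.33, Kctd11 -1.26, Dusp4 -1.06, Txnrd3 -1.03 and Trib3 -1.02. Further such differences were Pdlim5 -1.01, Plau -1.0, Dlc1 -0.77, Thbs1 -0.74, Cyr61 -0.74 and Vcl -0.72. To these add Fhl2 -0.63, Gadd45a -0.60, Relb -0.57, Ccnd1 -0.56 and Atf4 -0.50. Negative in knockout and positive in wild-type cells were Lfng -1.74, Bhlhe40 -1.08, Hsd17b7 -1.08, Insig1 -0.98, Id2 -0.92, Cldn3 -0.77, Spry1 -0.69 and mt-Atp8 -0.67. Negative in both, and larger in knockout cells, were Lpin1 -1.21, Egln3 -1.13, Bmp2 -0.98, Ankrd37 -0.92, Hmgcs1 -0.85, Cldn1 -0.70, Sqle -0.67 and Msmo1 -0.54.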

How the results depend on the processing

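All named genes that passed kept the sign of their difference in every fit in which they were measured. Of the 154 genes, 31 passed in every fit tried, 8 higher and 23 lower. The count of 154 (84 higher, 70 lower) moved by over 1.5 times under 4 settings. It was 91 without rescaling (18 higher), 67 with all 18 libraries (26 higher, 41 lower), 96 with no mean-variance trend (45 higher) and 385 at an adjusted p under 0.10 (247 higher, 138 lower). With no filter on low values 55 were higher. Among named genes that lost their call without 1 library, the highest adjusted p ran between 0.0505 (Trib3) and 0.126 (Cfb). Leaving out 1 library gave 61 to 217 genes, 26 to 131 higher and 34 to 86 lower. The 14 genes that differed between the Dync2h1 and Ift140 lines became 32 with a pseudocount of 5, and 4 to 23 without 1 library. The cause was not tested. Deviations of same-numbered libraries correlated at -0.05 to 0.08, which shows little shared deviation. The labels do not say whether replicate numbers pair the samples, and these correlations cannot decide it. With a replicate block 103 genes passed (56 higher, 47 lower; 92 of the 154) and 4 between the knockout lines. The counts of flow responses within each line stayed within 1.5 times in all fits.

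Genes just inside the threshold were Hoxd8, Chmp4b and Cfb (adjusted p 0.0475 to 0.0498), and just outside Vstm5, Crlf3 and Slc10a7 (0.0502 to 0.0511). The median difference was 0.08 among the shortest 2237 genes and 0.01 among the longest 2235 by transcript length, over the 97% of genes with a mean of at least 5 TPM that have a length. With 3 libraries a group and no known depth, genes that did not pass are not shown to respond alike.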

Other observations

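Genes outside the lists also differed; those described here were chosen after their values were seen. F2rl1, the protease-activated receptor PAR2, averaged 94.5 ± 4.09 TPM in Dync2h1 knockout flow and 42.4 ± 1.75 in Dync2h1 knockout static libraries, against 88.0 ± 5.00 in wild-type flow and 21.5 ± 1.14 in wild-type static libraries (SD, n = 3 each). The rise was 1.14 in knockout and 1.98 in wild-type cells, a difference of -0.85 (SE 0.09, adjusted p = 0.00136 by limma). F2r, the thrombin receptor PAR1, had a difference of -0.38 (adjusted p = 0.0333). Slc20a1, a sodium-phosphate cotransporter, rose by 0.80 in knockout and 1.45 in wild-type cells (difference -0.66, adjusted p = 0.00226). F2rl1 and Slc20a1 passed in every fit tried.

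The Hox genes Hoxb9, Hoxb2 and Hoxd8, which hold positional identity along the body axis, passed. Hoxb9 averaged 17.0 ± 0.785 TPM in Dync2h1 knockout flow and 30.2 ± 1.19 in Dync2h1 knockout static libraries, against 22.6 ± 1.21 in wild-type flow and 24.8 ± 0.391 in wild-type static libraries (difference -0.66, SE 0.10, adjusted p = 0.00922). Hoxb2 had a difference of -0.79 (adjusted p = 0.0124). Hoxd8 averaged 0.267 ± 0.0304 TPM in Dync2h1 knockout flow and 0.180 ± 0.11 in Dync2h1 knockout static libraries, against 10.1 ± 0.257 in wild-type flow and 16.4 ± 0.361 in wild-type static libraries (difference 0.75, adjusted p = 0.0475), a fall in wild-type cells of a gene near 0 in the knockout line. Csf2, the cytokine GM-CSF, averaged 4.08 ± 1.09 TPM in Dync2h1 knockout flow and 0.325 ± 0.259 in Dync2h1 knockout static libraries, against 0.191 ± 0.169 in wild-type flow and 0.185 ± 0.115 in wild-type static libraries (difference 1.93, SE 0.29, adjusted p = 0.0105).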
